A study of Mus musculus with 4 samples.

Results

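The guidance genes described here are the semaphorins, Slits and netrins, which are ligands, and their receptors, the plexins, the neuropilins, the Robos, the Unc5 proteins, Dcc and Neo1. They were taken by gene symbol and numbered 48 of the 53397 genes in the table: 28 ligands (20 semaphorins, 3 Slits and 5 netrins) and 20 receptors (9 plexins, 2 neuropilins, 3 Robos and 6 genes of the Unc5, Dcc and Neo1 group). RNA was measured in the posterior epiblast of wild type (WT) mouse embryos, the caudal tissue from which the body axis is extended, at embryonic day (E)8.5, once the trunk is being laid down, and at E7.5, while the head is still forming. Each stage had 2 libraries, each made with SMART-Seq2 from total RNA of its own pool of dissected tissue, and how many embryos, or of what sex, made up a pool was not given in the sources used here. No embryo carried a mutation, transgene or treatment, so stage is the only difference named by the labels, and the amount of each tissue in the dissection can differ with it.

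Semaphorins are recognised by plexins, whose cytoplasmic part acts on small GTPases and so on the cytoskeleton and on adhesion. Secreted class 3 semaphorins mostly need a neuropilin as co-receptor, whereas the membrane-bound classes bind plexins directly. Slits signal through Robos, and netrin-1 acts through Dcc and Neo1 or, with Unc5 proteins, as a repellent. These systems were described first in growing axons, and also steer migrating neural crest cells, heart cells and endothelium in the embryo.

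Of the 48 genes, 39 reached a normalized count of at least 1 in at least 2 libraries and were tested. Among these, 18 rose at E8.5, 9 fell and 12 did not pass the threshold, an adjusted p under 0.05 with limma over all 13903 genes tested. In the same comparison 25.6% of all genes tested rose and 26.4% fell, so the shares of these genes were 46.2% and 23.1%. With a log2 fold change of at least 1 as well, 7 rose (Sema3a, Sema3c, Sema3e, Plxnd1, Sema3d, Robo2 and Dcc) and 2 fell (Ntn1 and Sema4a), against 4.48% and 6.35% of all genes tested. Under a pseudocount of 4 rather than 1, the log2 fold changes of Sema3d, Dcc and Sema4a were 0.78, 0.70 and -0.82 and no longer reached that size, and without E7.5 replicate 1 that of Dcc was 0.95. The median log2 fold change was 0.15 over the 39 genes and -0.01 over all genes tested. Fold changes are on the scale of log2(normalized count + 1), which understates the change of genes with low counts. In these pools more cells with a transcript and more transcript per cell cannot be told apart.

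Of 23 ligands tested, 10 (43.5%) rose, 8 (34.8%) fell and 5 did not pass the threshold, with a median log2 fold change of 0.06. Of 16 receptors tested, 8 (50%) rose, 1 (6.25%) fell and 7 did not pass the threshold, with a median of 0.33. The shares over all genes tested were 25.6% risen and 26.4% fallen. The difference between ligands and receptors was not tested. Sema3c and Sema3g passed the filter on low values only through their E8.5 libraries, so a difference in their case was built into the selection.

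**Figure D1:**
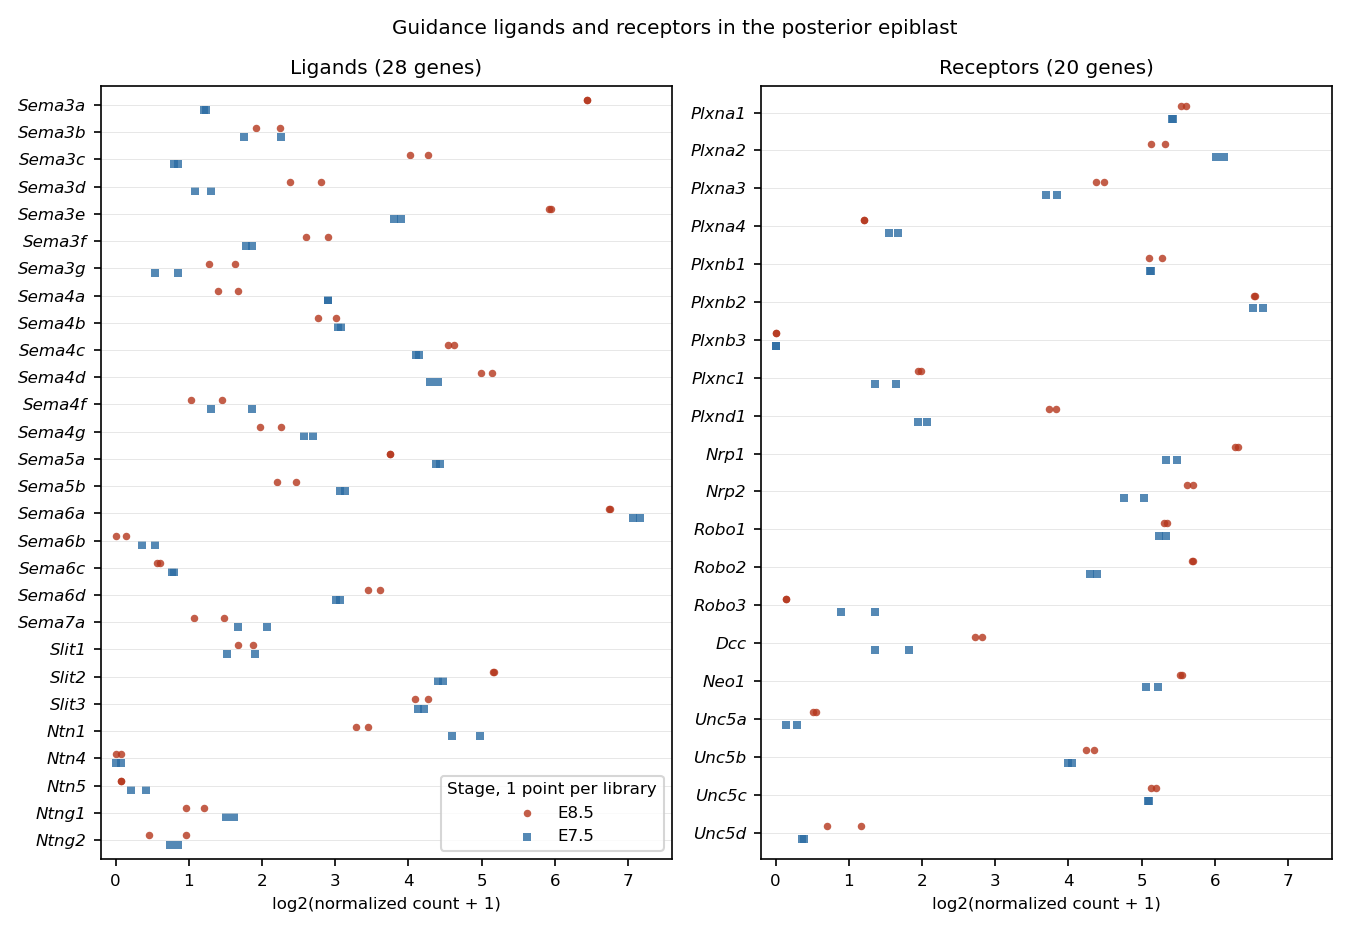
Levels of the 28 ligands and 20 receptors in each library, as log2(normalized count + 1), with E8.5 libraries as circles above E7.5 libraries as squares. Sema3a, Sema3c and Sema3e lie far to the right at E8.5, whereas Ntn1 and Sema4a lie to the left.

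**Figure D2:**
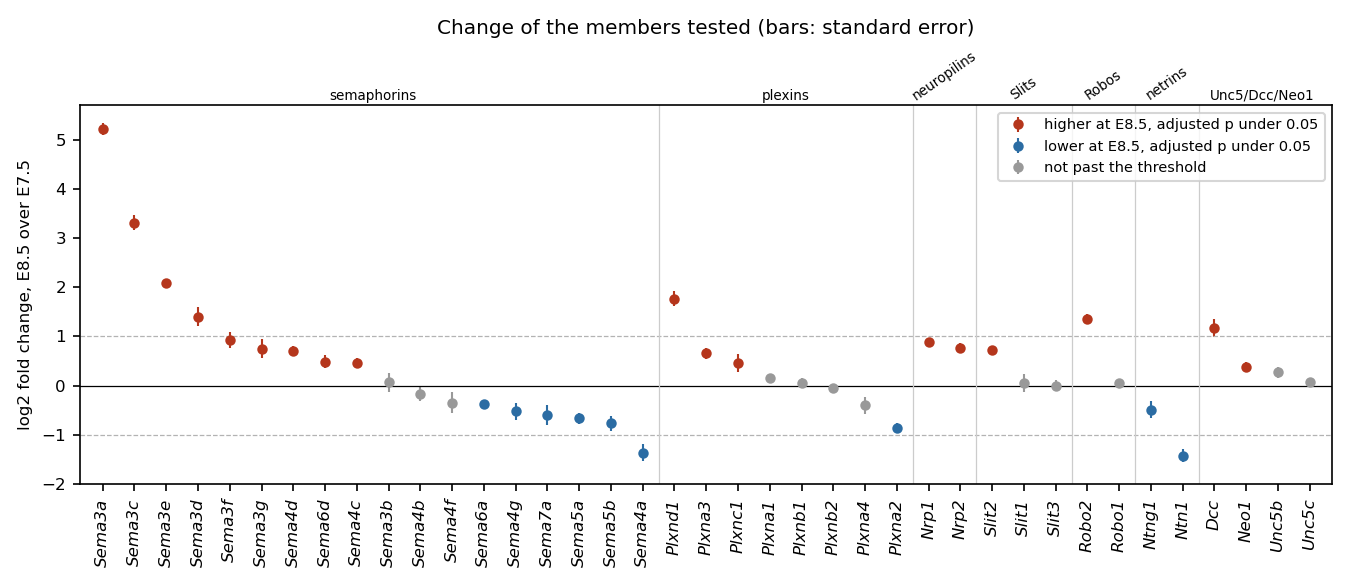
Log2 fold change of E8.5 over E7.5 for each of the 39 genes tested, by family, with bars for the standard error of the limma fit and dashed lines at 1 and -1. Class 3 semaphorins take the 6 highest places among semaphorins, Plxnd1 leads the plexins, and Sema4a and Ntn1 lie below -1.

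The depth was similar in all libraries. Reads in genes numbered 18488218 and 18515565 at E8.5 and 19111464 and 19493342 at E7.5, and 1 normalized count corresponded to 17.8 to 19.7 reads. A single gene, CT010467, took 18.6% and 18.5% of the summed values at E8.5, against 25.6% and 18.9% at E7.5. The labelled tissue was checked against 10 markers of epiblast and tail bud progenitors, all of which were detected. Brachyury was on the same list under the symbol T only, and no value was found for that symbol. Its other symbol, Tbxt, was not looked up, so brachyury was left out of the check. The 10 markers summed to 395 and 384 per kb of exon at E8.5 and 497 and 502 at E7.5. Of these 3 rose and 5 fell, where 25.6% and 26.4% of all genes tested did so. The largest rise was that of Cyp26a1, which degrades retinoic acid (2.17 on the log2 scale), and the largest fall that of the pluripotency factor Pou5f1 (-5.61). Markers of other tissues moved with stage. Endothelial markers summed to 77.6 and 74.9 per kb at E8.5, against 24.6 and 24.1 at E7.5, and 13 of 15 rose with none fallen. Primitive blood markers summed to 581 and 587, against 14.5 and 12.5, with 8 of 10 tested risen, 1 fallen and the embryonic globins Hbb-y and Hba-x without a read at E7.5. A gene without a read at E7.5 can pass the filter on low values only through its E8.5 libraries. For such genes a rise was built into the selection, so the count supports nothing by itself. All 13 markers of visceral and definitive endoderm fell, with sums of 200 and 201 at E8.5 and 1604 and 1538 at E7.5, and no endothelial or endodermal marker was at 0. Lateral plate markers summed to 130 and 133 at E8.5 and 120 and 113 at E7.5, with 8 of 12 risen and 2 fallen, while surface ectoderm markers summed to 366 and 381, against 567 and 544, with 3 of 10 tested risen and 6 fallen. Among 10 neural markers tested 5 rose and 3 fell (sums of 61.3 and 60.4 at E8.5, against 52.7 and 48.9 at E7.5). Among 10 of paraxial mesoderm 4 rose and 4 fell (168 and 166, against 246 and 248), and among 7 of neural crest, where Foxd3 had no read, 2 rose and 1 fell (39.97 and 43.5, against 43.2 and 42.2). The part of these tissues in the changes of the guidance genes was not tested.

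The secreted class 3 semaphorins had the highest median change of the families. Of 7 members 6 (85.7%) rose and none fell, against 25.6% and 26.4% of all genes tested, with a median log2 fold change of 1.40. Of the 6, Sema3c and Sema3g passed the filter on low values only through their E8.5 libraries, so a rise was built into their selection. The 7 members summed to 17.8 ± 0.242 per kb of exon at E8.5 and 3.07 ± 0.121 at E7.5 (SD, n = 2 each), 5.79 times as high at E8.5. Among them, Sema3d, Sema3a, Sema3e and Sema3c lie in this order on chromosome 5. The 250 bases before the RefSeq start of each of these genes (GRCm38.p6, all on the plus strand) are shown so that the starts of 4 neighbours that rose together can be compared. Capitals mark the GC box (GGGCGG, or CCGCCC on the other strand) and the core letters bound by the caudal factors of the CDX family (TTTAT, or ATAAA on the other strand).
Sema3d, chr5:12382916-12383165: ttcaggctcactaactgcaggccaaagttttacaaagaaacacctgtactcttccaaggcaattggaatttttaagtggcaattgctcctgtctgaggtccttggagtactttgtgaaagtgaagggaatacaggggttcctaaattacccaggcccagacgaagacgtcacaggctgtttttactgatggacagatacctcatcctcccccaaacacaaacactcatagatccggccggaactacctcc
Sema3a, chr5:13396534-13396783: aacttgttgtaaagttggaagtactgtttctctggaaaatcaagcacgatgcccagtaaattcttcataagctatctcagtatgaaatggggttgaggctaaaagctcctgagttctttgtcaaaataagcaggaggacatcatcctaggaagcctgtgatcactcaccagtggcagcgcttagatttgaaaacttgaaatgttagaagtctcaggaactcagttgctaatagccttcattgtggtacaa
Sema3e, chr5:14025026-14025275: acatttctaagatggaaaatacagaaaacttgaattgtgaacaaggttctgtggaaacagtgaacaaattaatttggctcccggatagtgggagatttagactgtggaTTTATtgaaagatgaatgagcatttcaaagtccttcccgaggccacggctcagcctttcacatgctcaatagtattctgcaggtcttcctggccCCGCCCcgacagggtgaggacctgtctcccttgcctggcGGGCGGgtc
Sema3c, chr5:17574566-17574815: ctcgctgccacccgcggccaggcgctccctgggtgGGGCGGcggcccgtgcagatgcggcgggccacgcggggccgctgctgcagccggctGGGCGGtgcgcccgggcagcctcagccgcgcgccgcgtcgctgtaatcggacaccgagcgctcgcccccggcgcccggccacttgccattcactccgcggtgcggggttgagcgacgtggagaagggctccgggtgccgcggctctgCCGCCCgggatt

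Sema3c stood apart from the others in base composition. Its window was 78.4% G and C with 3 GC boxes and 39 CpG pairs, and that of Sema3e was 48.0% with 2 GC boxes, 1 CDX core and 7 CpG pairs. The windows of Sema3d and Sema3a were 46.8% and 40.8% G and C, with 4 and 2 CpG pairs and neither motif. The RefSeq start of Sema3a lies 271370 bases inside the start of the longest gene model in GENCODE, so its window describes an internal start. Over 52 windows of 39 of the guidance genes, the median G and C content was 64.2%, against 52.4% over 32851 windows of all genes. A GC box was present in 67.3% of the windows of guidance genes and 32.7% of all windows, and a CDX core in 17.3% and 37.3%. The letters are a description of the sequence and say nothing of binding.

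Sema3a, a secreted repellent that binds Nrp1 with A-type plexins, changed most (chr5:13125414-13602565, GRCm38). It had 86.2 and 86.1 normalized counts in the E8.5 libraries, against 1.35 and 1.32 in the E7.5 libraries. The reads were 3292 at E8.5 and 50 at E7.5 over both libraries, a ratio of 64.6 (95% exact binomial interval 48.9 to 87.3, counting error only). The log2 fold change was 5.22 ± 0.12 (SE, adjusted p = 3.9e-14). Ranked per kb of exon it was number 5 of the 48 genes at E8.5 and number 43 at E7.5.

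Sema3c, which attracts cardiac neural crest cells to the outflow tract (chr5:17574281-17730268), had 15.2 and 18.2 normalized counts at E8.5 and 0.731 and 0.811 at E7.5. Its E7.5 level rested on 29 reads against 638 at E8.5, a ratio of 21.6 (14.9 to 32.5), and the log2 fold change was 3.32 ± 0.16 (adjusted p = 2.7e-10). Sema3c passed the filter on low values only through its E8.5 libraries, so a difference was built into its selection. Sema3e, which acts on Plxnd1 without a neuropilin and repels endothelial cells (chr5:14025276-14256689), was already well detected at E7.5. It had 60.6 and 59.8 normalized counts at E8.5, against 12.9 and 13.9 at E7.5 (log2 fold change 2.08 ± 0.09, adjusted p = 8.1e-11).

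Sema3d, whose loss in mice misplaces the pulmonary veins (chr5:12383385-12588948), stayed at a low level. It had 5.98 and 4.23 normalized counts at E8.5 and 1.46 and 1.12 at E7.5 (log2 fold change 1.40 ± 0.19, adjusted p = 1.7e-05). The E8.5 libraries differed from each other by more than the E7.5 libraries did, but the stages did not overlap. The Nrp2 ligand Sema3f averaged 5.76 ± 1.02 normalized counts at E8.5 and 2.54 ± 0.147 at E7.5 (SD, n = 2 each) and rose by 0.93 on the log2 scale (adjusted p = 0.00031). Sema3g, known from endothelium, rose by 0.75 (adjusted p = 0.0045) with 67 reads in all at E8.5 and 24 at E7.5. Its call ended without E7.5 replicate 1 (adjusted p = 0.056) or E8.5 replicate 2 (0.062), and when no filter was used (0.085). Sema3b, the remaining class 3 gene, averaged 3.25 ± 0.678 normalized counts at E8.5 and 3.07 ± 0.977 at E7.5, and its libraries overlapped between stages (log2 fold change 0.07, adjusted p = 0.78).

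The make-up of the class changed with its level. Per kb of exon, Sema3e and Sema3a took 37.0% and 35.2% of the class 3 total in E8.5 replicate 1 and 35.8% and 34.6% in replicate 2. At E7.5 Sema3e took 44.1% and 50.3%, Sema3b 25.0% and 16.7%, and Sema3a only 3.08% and 3.18%. These shares depend on the length used. Per kb of the longest coding transcript Sema3a was above Sema3e at E8.5 (14.5, against 8.77) and below it at E7.5 (0.225, against 1.96).

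**Figure D3:**
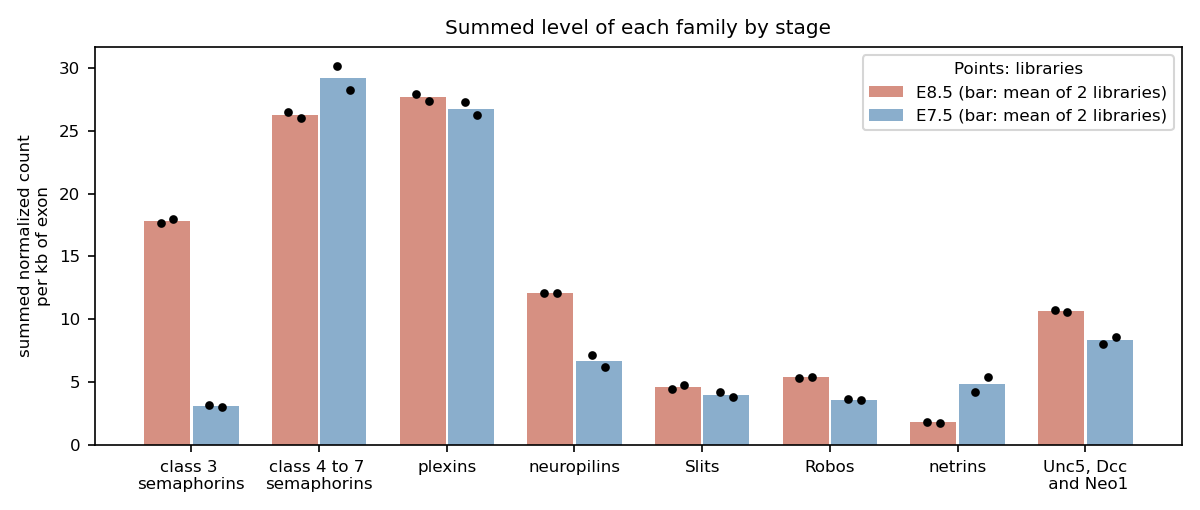
Summed normalized counts per kb of exon for each family, with bars for the mean of 2 libraries, points for single libraries and E8.5 to the left of E7.5. The class 3 semaphorins were at 17.8 and 3.07 and the netrins at 1.82 and 4.82, while the plexins were at 27.7 and 26.8.

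The 4 genes on chromosome 5 span 5.35 Mb (chr5:12383385-17730268, GRCm38), a stretch that was looked at after their values had been seen and is therefore only described. It holds 77 annotated genes, 21 of them protein coding, and 12 were tested. Of the 8 other than the semaphorins 7 rose, against 25.6% of all genes tested, none fell and Hgf did not pass the threshold. Of these 7, Pclo, Gm42680, Gm43130, Gm42675 and Gm43719 passed the filter on low values only through their E8.5 libraries, so a rise was built into their selection and the count supports nothing by itself. The value for Hgf, which encodes hepatocyte growth factor, was 0.25 ± 0.21 on the log2 scale (adjusted p = 0.33). Pclo, a scaffold protein of the presynaptic active zone, rose by 1.22 ± 0.18, and Cacna2d1, an accessory subunit of calcium channels, rose by 0.94 ± 0.15 on the log2 scale. The other 5 were unclassified transcript models. Gm42680, Gm43130 and Gm42675 lie inside Sema3a and Gm43519 inside Sema3e, without overlap with their exons, and Gm43719 lies just past the end of Sema3a. The libraries do not keep the strand, so reads of these models and of the unspliced transcripts of Sema3a and Sema3e cannot be told apart.

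**Figure D4:**
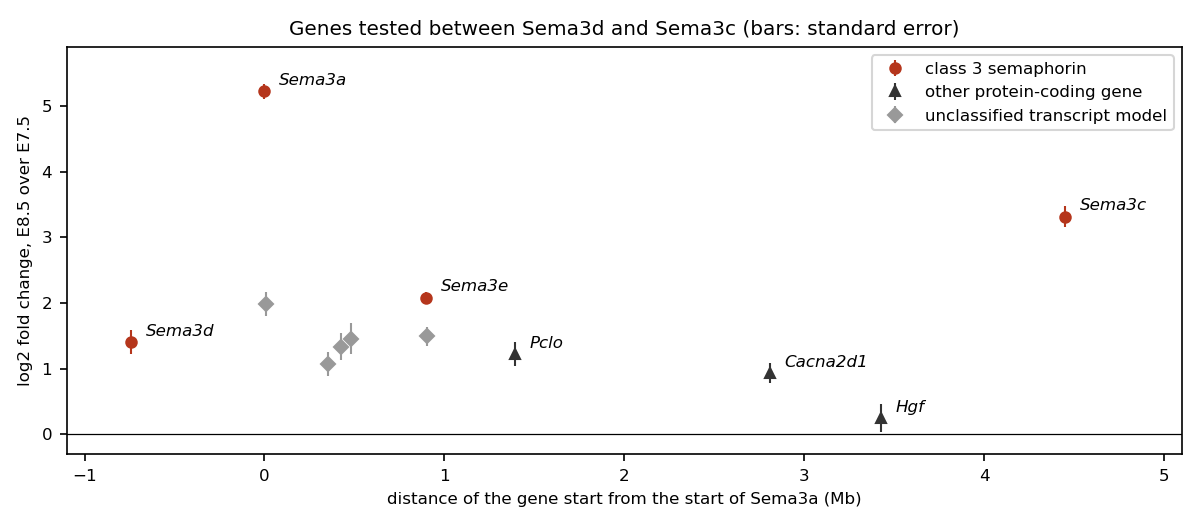
Log2 fold change of E8.5 over E7.5 for the 12 genes tested between Sema3d and Sema3c, by distance of the gene start from the start of Sema3a in Mb, with bars for the standard error. All points lie above 0, with Sema3a at 5.22, Sema3c at 3.32 and Hgf lowest at 0.25.

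The membrane-bound semaphorins of classes 4 to 7 moved in both directions and by less. Of 11 tested, 3 (27.3%) rose, 6 (54.5%) fell and 2 did not pass the threshold, against 25.6% and 26.4% of all genes tested that rose and fell. The median log2 fold change was -0.37. Their summed level per kb was 26.3 at E8.5 and 29.2 at E7.5. Sema6a, a transmembrane ligand of Plxna2 and Plxna4, made up the largest share of it and was the most abundant of all 48 genes per kb of exon at both stages. It had 106 and 107 normalized counts at E8.5, against 143 and 133 at E7.5, and fell by 0.37 on the log2 scale (SE 0.06, adjusted p = 0.00017).

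Sema4a, a ligand of B-type plexins and Plxnd1 also known from immune cells (chr3:88435959-88461182), fell most among semaphorins. It had 1.63 and 2.19 normalized counts at E8.5, against 6.46 and 6.44 at E7.5 (log2 fold change -1.36 ± 0.17, adjusted p = 7.7e-06). The thrombospondin-repeat semaphorins Sema5a and Sema5b fell by 0.66 and 0.77 on the log2 scale, with means of 12.4 and 4.06 normalized counts at E8.5, against 20.2 and 7.59 at E7.5. Sema7a, a lipid-anchored ligand of Plxnc1 and integrins, averaged 1.44 ± 0.486 at E8.5 and 2.69 ± 0.723 at E7.5 and fell by 0.60 (adjusted p = 0.020). Sema4g, a transmembrane class 4 semaphorin, averaged 3.35 ± 0.604 and 5.24 ± 0.380 and fell by 0.53 (adjusted p = 0.016).

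Neither of the last 2 calls held in every library. Without E7.5 replicate 1 the adjusted p was 0.19 for Sema7a and 0.10 for Sema4g, and without E8.5 replicate 2 it was 0.19 and 0.13. Without the filter it was 0.19 and 0.10, and with DESeq2 0.12 and 0.10. The semaphorins that rose in these classes included Sema4d, a ligand of Plxnb1, which averaged 32.5 ± 2.60 normalized counts at E8.5 and 19.4 ± 1.11 at E7.5 and rose by 0.71 (adjusted p = 2.9e-05). Sema4c, a ligand of Plxnb2, had 22.4 and 23.7 normalized counts at E8.5 and 16.7 and 16.1 at E7.5 (log2 fold change 0.46 ± 0.10, adjusted p = 0.0018). It was the semaphorin second in level per kb of all exons over all libraries. Per kb of the longest coding transcript, Sema4d was above it at both stages (7.26 and 4.34, against 5.91 and 4.22). Sema3a and Sema3e were then above it at E8.5 (14.5 and 8.77) and below it at E7.5 (0.225 and 1.96).

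Sema6d, a ligand of Plxna1 studied in the chick heart, rose by 0.49 (adjusted p = 0.0079), with means of 10.5 ± 0.926 at E8.5 and 7.19 ± 0.232 at E7.5. Its call ended without E7.5 replicate 1 (adjusted p = 0.051) and without E8.5 replicate 1 (adjusted p = 0.079). Sema4b and Sema4f, both transmembrane, had log2 fold changes of -0.17 and -0.34 and did not pass the threshold (adjusted p = 0.36 and 0.19). Sema6b and Sema6c were below the level tested. Sema6b had 2 reads at E8.5 and 14 at E7.5, a ratio of E7.5 over E8.5 of 7.13 with a wide counting interval (1.64 to 64.6), and Sema6c had 19 and 27 reads.

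The receptors of the class 3 semaphorins also rose in part. Nrp1, which binds Sema3a and is a co-receptor of Vegfa (chr8:128358604-128503363), had 76.1 and 78.5 normalized counts at E8.5, against 43.7 and 39.4 at E7.5 (log2 fold change 0.88 ± 0.08, adjusted p = 2.2e-07). Nrp2, which binds Sema3f and Vegfc, had 51.2 and 48.1 at E8.5, against 31.8 and 26.1 at E7.5 (log2 fold change 0.77 ± 0.10, adjusted p = 1.1e-05). Their summed level per kb was 12.1 at E8.5 and 6.69 at E7.5, and both rose in every pairing of libraries.

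Plxnd1, the endothelial receptor of Sema3e, was the plexin that changed most (chr6:115954811-115995005). It had 13.2 and 12.3 normalized counts at E8.5, against 2.87 and 3.20 at E7.5 (log2 fold change 1.77 ± 0.15, adjusted p = 1.2e-07), and its share of the summed plexin level per kb was 6.48% and 6.13% at E8.5 and 1.44% and 1.67% at E7.5. The window before its RefSeq start is shown because this receptor rose together with its ligand Sema3e, with the same marks (GRCm38.p6, minus strand, 1 GC box, no CDX core, 64.8% G and C).
Plxnd1, chr6:115995006-115995255: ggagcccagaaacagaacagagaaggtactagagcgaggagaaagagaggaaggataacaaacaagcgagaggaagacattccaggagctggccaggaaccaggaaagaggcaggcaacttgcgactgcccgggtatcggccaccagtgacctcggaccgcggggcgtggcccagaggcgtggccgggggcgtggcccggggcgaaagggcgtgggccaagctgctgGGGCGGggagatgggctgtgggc

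Plxnd1 rose beside the endothelial markers, whose summed level was 3.13 times as high at E8.5, and Cdh5, the cadherin of endothelial junctions, had 20.6 and 16.3 normalized counts at E8.5, against 2.42 and 2.23 at E7.5. Their part in the change of Plxnd1, Nrp1 and Nrp2 was not tested.

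The A-type plexins, which pair with neuropilins or bind class 6 semaphorins, did not move together. Plxna3 averaged 20.5 ± 1.11 normalized counts at E8.5 and 12.6 ± 1.03 at E7.5 and rose by 0.66 (adjusted p = 0.00022). Plxna2 averaged 36.4 ± 3.35 at E8.5 and 66.5 ± 3.70 at E7.5, and was the only receptor tested that fell (log2 fold change -0.85 ± 0.08, adjusted p = 8.6e-07). Plxna1, the most abundant A-type plexin per kb of all exons, had 47.6 and 45.6 at E8.5 and 42.0 and 41.6 at E7.5, a log2 fold change of 0.15 ± 0.08 that did not pass the threshold (adjusted p = 0.11). Per kb of the longest coding transcript Plxna2 was above it at E7.5 (6.02, against 4.63) and below it at E8.5 (3.29, against 5.16). Plxna4 averaged 1.31 ± 0.00467 and 2.05 ± 0.191 (log2 fold change -0.40, adjusted p = 0.065).

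Among the B-type plexins, receptors of class 4 semaphorins, the levels of Plxnb1 and Plxnb2 overlapped between stages. Plxnb2 was the most abundant plexin per kb, with 91.4 and 92.7 normalized counts at E8.5 and 99.9 and 90.9 at E7.5 (log2 fold change -0.05 ± 0.07, adjusted p = 0.57). Plxnb1 averaged 35.4 ± 3.16 at E8.5 and 33.8 ± 0.308 at E7.5 (log2 fold change 0.06, adjusted p = 0.59). Plxnb3 had no read in any library, which allows a normalized count of up to 0.0785 at E8.5 and 0.0800 at E7.5 (3 reads over both libraries). Plxnc1, the receptor of Sema7a, averaged 2.90 ± 0.101 and 1.85 ± 0.393 and rose by 0.46 (adjusted p = 0.038). That call ended without E7.5 replicate 1 (adjusted p = 0.22), E8.5 replicate 1 (0.093) or E8.5 replicate 2 (0.13), and also with a pseudocount of 0.1 (0.054), without the filter (0.18), with edgeR (0.056) and with DESeq2 (0.21).

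In the Slit and Robo system 1 of 3 ligands and 1 of 2 receptors tested rose and none fell. Over all genes tested 25.6% rose and 26.4% fell. Slit2, a secreted repellent made by midline cells among others, had 34.6 and 34.98 normalized counts at E8.5, against 21.2 and 20.2 at E7.5 (log2 fold change 0.72 ± 0.09, adjusted p = 1.2e-05). Slit3, known from the diaphragm, had 16.0 and 18.2 at E8.5 and 17.5 and 16.5 at E7.5, with overlapping libraries (log2 fold change 0.00 ± 0.11, adjusted p = 0.99). It had the highest level of the Slits per kb of all exons. Per kb of the longest coding transcript Slit2 was above it at E8.5 (3.49, against 3.27) and below it at E7.5 (2.08, against 3.26). Slit1, mainly neural, was low, at 2.43 ± 0.342 at E8.5 and 2.32 ± 0.621 at E7.5 (log2 fold change 0.06, adjusted p = 0.80).

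Robo2, a Slit receptor required for the outgrowth of the ureteric bud at a single site (chr16:73891839-74411825), had 50.6 and 51.3 normalized counts at E8.5, against 19.9 and 18.6 at E7.5 (log2 fold change 1.36 ± 0.09, adjusted p = 7.4e-09). Robo1, its neighbour on chromosome 16, had 38.6 and 39.8 at E8.5 and 36.7 and 39.1 at E7.5 (log2 fold change 0.05 ± 0.08, adjusted p = 0.64). Robo2 therefore held 55.9% and 55.4% of the summed Robo level per kb at E8.5, against 32.3% and 30.5% at E7.5, and Robo1 43.9% and 44.3%, against 61.3% and 66.0%.

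Robo3, which acts in commissural axons and in mammals has lost most of its binding to Slits, was low and went the other way. It had 0.105 and 0.104 normalized counts at E8.5 and 1.57 and 0.862 at E7.5, and was left out of the test because only 1 library reached 1. Its reads were 4 at E8.5 and 45 at E7.5, a ratio of E7.5 over E8.5 of 11.5 (4.18 to 43.9, counting error only), and without the filter its adjusted p was 0.031.

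Both netrins tested, Ntn1 and Ntng1, fell, against 26.4% of all genes tested. Dcc, Neo1 and the Unc5 genes tested rose or did not pass the threshold. Of the 2 netrins, Ntng1 does not bind Dcc, and its call did not hold under every alternative. Ntn1, the netrin made by the floor plate (chr11:68209364-68400823), had 9.87 and 8.77 normalized counts at E8.5, against 23.2 and 30.5 at E7.5 (log2 fold change -1.42 ± 0.13, adjusted p = 4.9e-07). The E7.5 libraries differed from each other by more than the E8.5 libraries, and every E7.5 library lay above both E8.5 libraries. Ntn1 made up 85.1% and 78.3% of the summed netrin level per kb at E8.5 and 87.1% and 90.04% at E7.5, and that sum was 0.376 times as high at E8.5 as at E7.5.

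Beside Ntn1, markers of the node, notochord and floor plate summed to 31.6 and 32.0 per kb at E8.5 and 52.2 and 55.1 at E7.5. Of the 11, 2 rose and 7 fell, against 25.6% and 26.4% of all genes tested, and none was at 0. Foxj1, which passed the filter on low values only through its E7.5 libraries and is the master factor of motile cilia, fell to 0.525 and 0.731 normalized counts at E8.5, against 22.1 and 20.7 at E7.5, while Shh, made by notochord and floor plate, rose by 1.87 on the log2 scale. The part of these tissues in the change of Ntn1 was not tested.

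Ntng1, a lipid-anchored netrin that binds Lrrc4c and not Dcc, was second in the family by its mean per kb of all exons over the 4 libraries, but below Ntng2 at E8.5 alone (0.137, against 0.164 per kb). Per kb of the longest coding transcript it was below Ntng2 at E8.5 (0.202, against 0.347) and at E7.5 (0.352, against 0.395). It had 1.31 and 0.940 normalized counts at E8.5, against 1.85 and 2.08 at E7.5, and fell by 0.49 on the log2 scale (adjusted p = 0.033), and the call ended without E7.5 replicate 1 (adjusted p = 0.064), E7.5 replicate 2 (0.12) or E8.5 replicate 2 (0.20), and also without the filter (0.16), with scaling to total reads (0.070) and with DESeq2 (0.22). Ntng2, which binds Lrrc4, Ntn4, a netrin that binds laminins, and Ntn5 were below the level tested, with 25, 1 and 2 reads at E8.5 and 28, 1 and 9 reads at E7.5. Of the exons of Ntn5, 23.4% overlap Sec1 on the other strand, and of those of Ntng2, 14.0% overlap 6530402F18Rik on the same strand. Reads in these parts cannot be told apart.

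Neo1, which binds repulsive guidance molecules as well as netrins, was the most abundant gene of the netrin receptor group per kb, with 44.8 and 45.8 normalized counts at E8.5, against 32.5 and 36.4 at E7.5 (log2 fold change 0.39 ± 0.09, adjusted p = 0.0014). Its relative Dcc, the receptor through which netrin-1 attracts axons, was much lower but rose more. It had 6.09 and 5.59 at E8.5, against 1.57 and 2.54 at E7.5 (log2 fold change 1.18 ± 0.18, adjusted p = 6.9e-05). Unc5b, an Unc5 receptor of endothelium and other cells, had 19.3 and 17.8 at E8.5 and 14.9 and 15.5 at E7.5, with both E8.5 libraries higher but an adjusted p of 0.051 (log2 fold change 0.27 ± 0.11). Unc5c averaged 34.9 ± 1.12 at E8.5 and 33.2 ± 0.0809 at E7.5 (log2 fold change 0.07, adjusted p = 0.51). Unc5a and Unc5d were below the level tested, with 17 and 36 reads at E8.5 and 6 and 11 at E7.5, and ratios of 2.78 (1.05 to 8.62) and 3.21 (1.60 to 6.997) by counting error only.

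Set beside each other per kb of exon, the most abundant of the 48 genes at E8.5 were Sema6a (12.1), Plxnb2 (11.9), Nrp1 (7.90), Sema3e (6.48) and Sema3a (6.21). At E7.5 they were Sema6a (15.7), Plxnb2 (12.4), Plxna1 (4.62), Ntn1 (4.28) and Nrp1 (4.24). The order depended on the length used. With the length of the longest coding transcript in place of all exons, the same genes led at E8.5 in another order. They were Nrp1 (21.5), Sema6a (15.5), Sema3a (14.5), Plxnb2 (14.2) and Sema3e (8.77). At E7.5 the first were then Sema6a (20.1), Plxnb2 (14.7), Nrp1 (11.5), Plxna2 (6.02) and Robo1 (5.01), while Plxna1 and Ntn1 were numbers 7 and 8.

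Other genes of the same pathways, from lists of 95 genes, moved in both directions. Of 86 tested, 40 (46.5%) rose and 19 (22.1%) fell, against 25.6% and 26.4% of all genes tested, with a median log2 fold change of 0.19. These counts include Adgrl3, Trim9 and Trim67, which passed the filter on low values only through the stage where they were higher. Without that filter 24 rose and 18 fell. Among 9 other ligands and ligand-side genes tested, 4 (44.4%) rose and 3 (33.3%) fell. Vegfc, a ligand of Flt4 that also binds Nrp2, rose by 1.52, Pgf, a placental growth factor that binds Nrp1, by 0.95, and Rgmb, a Neo1 ligand, by 0.49. The netrin antagonist Draxin fell by 0.97, Rgma, also a Neo1 ligand, by 0.69 and Flrt3, a ligand of Unc5 proteins, by 0.57 on the log2 scale.

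Of 18 other receptors and co-receptors tested, 10 (55.6%) rose and 4 (22.2%) fell. The largest rises were those of Kdr (1.86), the main VEGF receptor and also one of the endothelial markers, Adgrl3 (1.21), a latrophilin that binds Flrt3, and Flt4 (0.90), the receptor of Vegfc. The largest falls were those of Timd2 (-1.48), a mouse receptor of Sema4a, L1cam (-1.22), a partner of Nrp1 in the response to Sema3a, and the endothelial Robo4 (-0.92). Adgrl3 passed the filter on low values only through its E8.5 libraries. L1cam had 1.63 and 1.51 normalized counts at E8.5, against 5.23 and 4.72 at E7.5.

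Of 59 cytoplasmic effectors tested, 26 (44.1%) rose and 12 (20.3%) fell. Trim9, a ubiquitin ligase that binds Dcc, rose by 1.58, and its relative Trim67 fell by 1.57 on the log2 scale. Trim9 had 3.62 and 3.55 normalized counts at E8.5, against 0.674 and 0.406 at E7.5, and Trim67 had 0.210 and 0.418, against 3.37 and 2.43. Each thus passed the filter on low values only through the stage where it was higher, and a difference was built into the selection. Mical2, which oxidises actin, rose by 1.26 and Dpysl4, of the collapsin response mediator family, by 1.25, while the small GTPases Mras and Rnd2 fell by 1.22 and 0.84.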

How the data were processed

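RNA of the posterior epiblast was measured in 4 libraries, 2 at E8.5 and 2 at E7.5. The authors prepared them with SMART-Seq2, which does not keep the strand, sequenced single-end reads of 75 bases on a NextSeq500 and aligned them to mm10 with STAR. For normalization, the methods text names DESeq2 and the submitters' processing notes name edgeR, and the counting program and the annotation are not given in the sources used here. The deposited signal values, called normalized counts here, are read counts of genes scaled by a size factor before deposition. Within a library they step in multiples of what 1 read is worth, from which 100% of the values could be turned back into whole reads, with a tolerance of 0.0001 reads.

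Values were taken as log2(value + 1), and 13903 of 53397 genes, those at 1 or more in 2 or more libraries, entered the test. Stages were compared with limma 3.58.1 in R 4.3.3 (lmFit, eBayes with trend), with 2 residual and 12.8 prior degrees of freedom, with Benjamini-Hochberg adjustment across these genes. An exact permutation test of 2 against 2 libraries cannot go below p = 0.333, so none was run. Levels between genes were compared per kb of all annotated exons (GENCODE vM21, GRCm38, which all 48 genes matched), and the windows before gene starts came from RefSeq (GRCm38.p6). Of 48 genes 39 had a window here. Intervals of read ratios are 95% exact binomial intervals and cover counting error only. The test was tried on simulated data with known changes.

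The genes, the lists and the alternatives were chosen with earlier results of these data known. All 48 genes are named. Values of each library are given for genes past an adjusted p of 0.05 with a log2 fold change of at least 1 in size and for the 2 most abundant per kb in each family, and of the other pathway genes up to 3 rises and 3 falls per list are named. Cdh5, Cyp26a1, Pou5f1, Hbb-y, Hba-x, Foxd3, Foxj1, Shh, Hgf, Pclo and Cacna2d1 were named after their values were seen. The alternatives were other pseudocounts, filters and scalings, edgeR 4.0.16 and DESeq2 1.42.0 on the recovered reads, leaving out each library, and the replicate number as a block. Some genes are not reported here.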

Additional observations from a re-analysis of the deposited data

How the results depend on the processing

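Among the guidance genes that rose or fell, all except Ntng1, Sema3g, Sema4g, Sema6d, Sema7a and Plxnc1 kept their direction and their call under every alternative that tested them, and these 6 kept their direction. With a pseudocount of 4, 1 gene, a ligand, fell with a log2 fold change of -1 or less, in place of 2, and 5 rose by 1 or more, in place of 7. With edgeR and with DESeq2 9 did so. Of the ligands 5 fell in place of 8 without the filter on low values, with a minimum of 5, and with DESeq2, and 5 to 8 when a library was left out. Without the filter 2 receptors fell in place of 1, the other being Robo3, and 24 of the other pathway genes rose in place of 40. Plxnb2 had a log2 fold change of 0.0398 with scaling to total reads. Leaving out a library gave log2 fold changes of -0.12 to 0.0185 for Plxnb2, -0.0266 to 0.15 for Plxnb1, -0.13 to 0.25 for Slit1, -0.0843 to 0.0886 for Slit3 and -0.18 to 0.32 for Sema3b, none of which passed the threshold. Unc5b passed the threshold under 5 alternatives, with adjusted p of 0.033 to 0.050. Scaling to total reads moved the median of all genes to 0.07, and 3843 rose and 2568 fell, against 3562 and 3671, while 19 and 8 of the guidance genes did so, against 18 and 9. Over all genes edgeR on the recovered reads called 3633 higher and 3539 lower, and DESeq2 2828 and 2798. The cause of these differences was not tested. With the replicate number as a block 18 guidance genes rose and 9 fell, and no call changed. Same-numbered libraries did not deviate together (correlation -0.0025), and the numbers were taken as names only. With 2 libraries per stage, and with 9 genes too low for the test, small changes of the low genes may not be detectable at this depth.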
